A study of Mus musculus with 5 samples.

Results

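The serum amyloid A genes of the mouse are 4 protein-coding genes, Saa1, Saa2, Saa3 and Saa4, and they were followed here by name through 31053 genes listed in 5 single-cell libraries of liver cells. All 4 were found, and their values were read in 5691 hepatocytes. A hepatocyte was a barcode with at least 5000 unique molecular identifiers (UMIs, tags that count captured transcripts), 10% to 30% of them from mitochondrial genes, and at least 1% from Alb, Apoa1 and Ttr together.

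The mice were C57BL/6J. One library came from postnatal day 14, one from adults labelled as control, and 3 from adults killed 24 h, 48 h or 96 h after PHx (partial hepatectomy, surgery that removes part of the liver and sets off regrowth). The treatment text names the library labelled adult control as operated, but its title, source name and age label do not, and it is called the control library here. Liver cells were released by perfusion, passed over a dead-cell removal kit and run as droplets with a 10x v3 kit. The labels give no sex, no number of animals and no sham operation.

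Serum amyloid A proteins are small apolipoproteins that ride on high-density lipoprotein (HDL). SAA1 and SAA2 are acute phase proteins: the liver makes them in large amounts when interleukin 6, interleukin 1 or tumour necrosis factor reach hepatocytes, through STAT3, NF-kB and C/EBP factors, and their long-term excess can deposit as AA amyloid. SAA3 in mice is inducible too and is also made outside hepatocytes, by macrophages and fat cells among others, whereas SAA4 is regarded as the constitutive member.

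In the GRCm38 annotation the genes form a cluster of 42316 bases on chromosome 7. Their order is Saa3 (chr7:46711998-46715700, minus strand), Saa4 (chr7:46727998-46732603, minus strand), Saa1 (chr7:46740497-46742980, minus strand) and Saa2 (chr7:46751790-46754313, plus strand). Saa1 and Saa2 are neighbours that point away from each other across 8809 bases. All 4 Ensembl identifiers of the files matched this annotation. RefSeq synonyms exchange the names Saa1 and Saa2. Genes and promoter entries were taken by their main symbol, and the identifiers of the files were compared with the annotation afterwards.

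The upstream sequences are shown because Saa1 and Saa2 share nearly all of theirs, while Saa3 and Saa4 do not. Whether these windows bear on the levels of the genes was not tested. Each is 200 bases, from 250 to 51 bases before the gene start in the RefSeq promoter table (build GRCm38.p6), read on the strand of the gene. The windows are chr7:46743031-46743230 on the minus strand for Saa1, chr7:46751583-46751782 on the plus strand for Saa2, chr7:46715727-46715926 on the minus strand for Saa3 and chr7:46732654-46732853 on the minus strand for Saa4. Capitals mark a match to the C/EBP motif TTGCNNAA on either strand.
Saa1: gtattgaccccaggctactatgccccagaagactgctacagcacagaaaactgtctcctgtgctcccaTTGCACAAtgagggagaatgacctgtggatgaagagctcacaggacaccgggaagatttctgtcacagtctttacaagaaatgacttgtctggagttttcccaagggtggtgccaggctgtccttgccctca
Saa2: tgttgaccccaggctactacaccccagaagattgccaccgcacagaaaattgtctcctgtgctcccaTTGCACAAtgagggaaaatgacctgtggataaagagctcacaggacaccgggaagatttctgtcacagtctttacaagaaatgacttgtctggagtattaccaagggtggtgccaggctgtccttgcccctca
Saa3: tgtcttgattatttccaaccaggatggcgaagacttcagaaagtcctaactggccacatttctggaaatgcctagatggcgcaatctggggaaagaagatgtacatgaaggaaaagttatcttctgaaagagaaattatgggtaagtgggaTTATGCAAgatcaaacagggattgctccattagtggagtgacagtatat
Saa4: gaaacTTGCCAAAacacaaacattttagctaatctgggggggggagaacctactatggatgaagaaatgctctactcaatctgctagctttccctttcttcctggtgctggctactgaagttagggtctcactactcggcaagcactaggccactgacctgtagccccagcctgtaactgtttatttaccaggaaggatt

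Saa1 and Saa2 were identical at 93.5% of aligned positions of these windows, against 49.1% for Saa1 and Saa3 and 44.5% for Saa1 and Saa4. In coding sequence the identity was 95.1% for Saa1 with Saa2, 75.9% for Saa1 with Saa3 and 65.2% for Saa1 with Saa4. In the part of the transcript after the coding sequence (207 and 204 bases) it was 91.3% for Saa1 with Saa2. The C/EBP motif occurred in all 4 windows, starting at -182 in Saa1, -183 in Saa2, -99 in Saa3 and -245 in Saa4 relative to the gene start, and in 8.13% of 27025 mouse promoter windows of the same length. The STAT motif TTCNNNGAA (5.89% of windows) and the NF-kB consensus (5.53%) did not occur in any of the 4, which says only that these letters are not in these windows. Because the coding sequences are so alike, it matters whether counts of one gene could be counts of the other. Of the 520 stretches of 90 bases in the Saa1 transcript, 10 (1.92%) also stood in a Saa2 transcript without a mismatch, and of 560 stretches of 50 bases 74 (13.2%) did. The read length and the handling of ambiguous reads are not given in the sources used here.

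The hepatocytes numbered 2106 at postnatal day 14, 925 in the control library, 1170 at 24 h, 719 at 48 h and 771 at 96 h, with median depths between 18527 and 38922 UMIs. All 9 hepatocyte markers found in the files were above 5 CPM in every library (CPM, the UMIs of a gene per 1000000 UMIs of all genes but the 13 mitochondrial ones, not divided by transcript length), and the lowest of them stood at 1866 CPM. Alb, Apoa1 and Ttr are among these markers and also enter the hepatocyte thresholds, so for them this is no independent check. Across pairs of libraries 3 hepatocyte barcodes were shared. Each group is 1 library, so no difference between groups has a replicate check, and no test is made. Intervals are exact Poisson or exact binomial intervals at 95% and cover counting error only. The control library carries lane code 2 and the other 4 carry lane code 1, so lane and control status cannot be told apart. That library also had the richest empty droplets (median 1330 UMIs over the 40000 droplets of the empty-droplet plateau, against 287 to 775 elsewhere). Markers of neutrophils differed between libraries: their summed level in hepatocytes was 11.6 CPM in the control library, 108 CPM at 24 h, 199 CPM at 48 h, 21.8 CPM at 96 h and 31.3 CPM at postnatal day 14. At 48 h 316 of 719 hepatocytes held at least 3 of the 9 neutrophil markers. Erythroid markers summed to 740 CPM in the control library, 523 CPM at 24 h, 763 CPM at 48 h, 331 CPM at 96 h and 125 CPM at postnatal day 14. At 48 h 665 hepatocytes held at least 3 erythroid markers. With every hepatocyte that held 3 markers of another class left out (erythroid markers not used), 387 hepatocytes remained at 48 h and 1055 at 24 h, and the log2 ratio of the summed Saa genes to the control library was 3.89 at 48 h and 3.30 at 24 h, against 3.88 and 3.32 in all hepatocytes.

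Saa1 encodes a major acute phase serum amyloid A. In hepatocytes its level was 20.2 CPM at postnatal day 14 (19.1 to 21.3), 2029 CPM in the control library (2005 to 2053), 17157 CPM at 24 h (17099 to 17215), 24977 CPM at 48 h (24909 to 25045) and 879 CPM at 96 h (863 to 895). The libraries at 24 h and 48 h stood far above the other 3, and no intervals overlapped. Against the control library, Saa1 was 8.46-fold higher at 24 h, 12.3-fold higher at 48 h, 2.31-fold lower at 96 h and 100.6-fold lower at postnatal day 14.

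Saa2, its near twin, followed the same order of libraries with a wider span. Its levels were 5.44 CPM at postnatal day 14 (4.88 to 6.03), 1365 CPM in the control library (1346 to 1385), 20968 CPM at 24 h (20904 to 21032), 31492 CPM at 48 h (31416 to 31568) and 856 CPM at 96 h (841 to 872). Saa2 was thus 15.4-fold higher at 24 h, 23.1-fold higher at 48 h, 1.59-fold lower at 96 h and 251-fold lower at postnatal day 14 than in the control library. The value at postnatal day 14 rests on 351 Saa2 UMIs, and 10 of 2106 hepatocytes held 77.5% of them. Its interval takes these UMIs as independent. Ranked by UMIs among all genes that are not mitochondrially encoded, Saa2 stood at rank 1 at both 24 h and 48 h, ahead of albumin. Saa1 stood at rank 3 at 24 h and rank 2 at 48 h, whereas in the control library the ranks were 57 for Saa1 and 88 for Saa2.

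**Figure D1:**
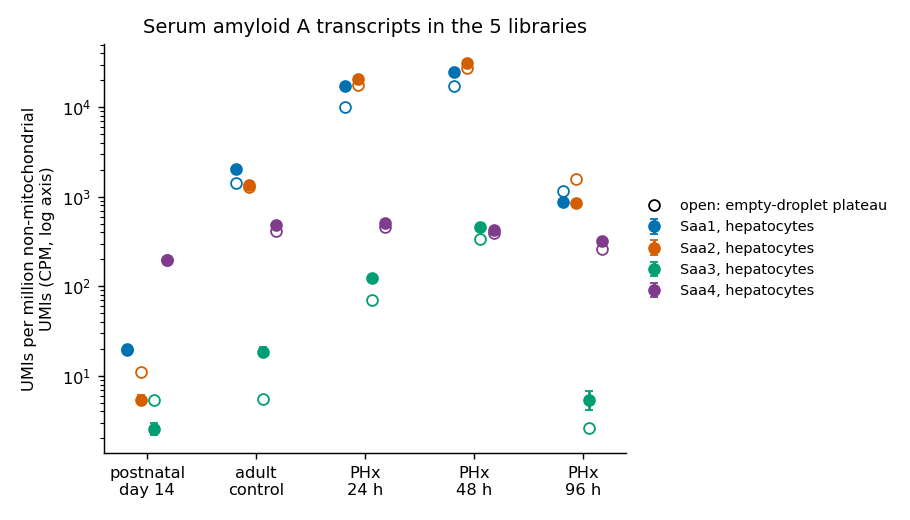
CPM of each gene (log axis) in the hepatocytes of each library (filled points, bars are exact 95% Poisson intervals, often smaller than the point) and in the empty-droplet plateau of the same library (open points). Saa1 and Saa2 reach 17157 to 31492 CPM at 24 h and 48 h, Saa3 peaks at 459 CPM at 48 h, and Saa4 lies between 196 and 512 CPM in all 5 libraries.

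Saa3, the member that is also made outside hepatocytes, gave far fewer UMIs than Saa1 in every library, 9554 against 520346 at 48 h. Its hepatocyte level was 2.57 CPM at postnatal day 14, 18.7 CPM in the control library, 124 CPM at 24 h, 459 CPM at 48 h and 5.36 CPM at 96 h. The level at 48 h stood above all others, and the difference between 24 h and 48 h was wider than for Saa1 and Saa2: Saa3 was 3.71-fold higher at 48 h than at 24 h (3.55 to 3.88), against 1.46-fold for Saa1 and 1.502-fold for Saa2. Against the control library Saa3 was 6.61-fold higher at 24 h (5.80 to 7.56), 24.5-fold higher at 48 h (21.6 to 27.9), 3.49-fold lower at 96 h (2.68 to 4.60) and 7.27-fold lower at postnatal day 14 (5.95 to 8.91). The last 2 rest on 72 and 166 Saa3 UMIs, and the direction at 96 h turned (log2 ratio 0.41 against -1.63) when hepatocytes were limited to a mitochondrial share of 10% to 20%. The log2 ratio at 24 h, 2.66, was 4.32 under that limit and 1.04 with Alb, Apoa1 and Ttr at 5% or more, which left 6 hepatocytes there. At 48 h the log2 ratio, 4.54, ranged over the alternatives from 4.03 to 6.68, the highest resting on 2 hepatocytes.

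Saa4, the constitutive member, differed least. It stood at 196 CPM at postnatal day 14, 479 CPM in the control library, 512 CPM at 24 h, 428 CPM at 48 h and 320 CPM at 96 h. Its ratio to the control library was 1.07 at 24 h (1.04 to 1.10), 0.894 at 48 h (0.866 to 0.924), 0.668 at 96 h (0.643 to 0.695) and 0.410 at postnatal day 14 (0.398 to 0.423). At postnatal day 14 Saa4 was the most abundant member by UMIs and made up most of the summed level of 225 CPM. At 48 h the 4 genes together held 57355 CPM, or 5.74% of the hepatocytes' non-mitochondrial UMIs, of which Saa4 gave 428 CPM.

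All 4 members had at least 5 CPM in the control library and so entered each comparison with it. At 24 h 3 of 4 were at least 4-fold higher and none lower, against 2.77% higher and 1.05% lower of the 9028 genes that reached 5 CPM in one of the libraries compared. At 48 h 3 of 4 were at least 4-fold higher, against 2.96% higher and 1.25% lower of 9035 genes. At 96 h none of the 4 passed 4-fold (0.945% of 8890 genes were higher and 0.427% lower). At postnatal day 14 3 of 4 were at least 4-fold lower and none higher (3.72% of 9011 genes were lower and 3.07% higher), but Saa3 came short of 4-fold there under 3 of 13 alternative settings, and at 24 h under 1 that left 6 hepatocytes. These comparisons share 1 library, so their values stand side by side and are not independent of each other. The comparisons between operated libraries do not use it. From 24 h to 48 h none of the 4 passed 4-fold (0.284% of 8817 genes were higher and 0.204% lower). From 48 h to 96 h 3 of 4 were at least 4-fold lower (0.959% of 8966 genes were lower and 0.58% higher): Saa1 28.4-fold (27.9 to 28.9), Saa2 36.8-fold (36.1 to 37.5) and Saa3 85.6-fold (67.9 to 109.5). In that comparison Saa3 had the lowest log2 ratio of all 8966 genes, Saa2 ranked 8964 and Saa1 8962 from the highest. Saa4 was 1.34-fold lower.

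The spread over single hepatocytes differed between libraries. The median hepatocyte held 201 Saa1 and 268.5 Saa2 UMIs at 24 h and 548 and 696 at 48 h, against means of 6.70 and 11.9 UMIs per empty droplet at 24 h and 4.87 and 7.76 at 48 h. The 95th percentile of Saa1 over cells was 3.20 times the 5th percentile at 24 h (27020 against 8455 CPM), 3.89 times at 48 h and 6.99 times in the control library. At 96 h it was 79.6 times (3376 against 42.4 CPM), but there the low end lies at the counting floor: 33 of 771 cells had no Saa1 UMI and 57 had 1, with 0.890 UMIs per empty droplet, and few UMIs widen the ratio. In that library the tenth of the cells that held most gave 41.7% of all Saa1 UMIs, against 26.5% in the control library. The median over cells at 96 h, 535 CPM, lay below the control library's 5th percentile of 628 CPM. The 75th percentile at 96 h, 1242 CPM, lay below the control library's median of 1784 CPM, and the 95th percentile lay above it.

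**Figure D2:**
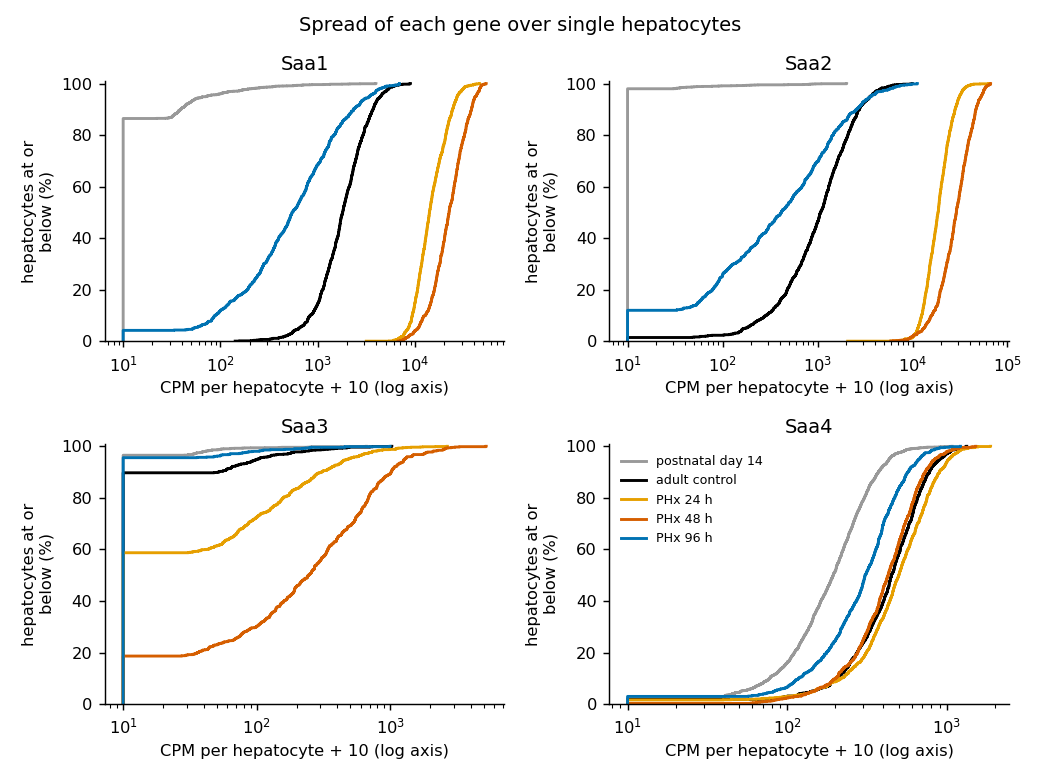
Share of hepatocytes (vertical axis, percent) at or below a given CPM plus 10 (horizontal log axis) for each gene and library. The curves of Saa1 and Saa2 are steep at 24 h and 48 h and shallow at 96 h, those of Saa3 start at the share of cells without a UMI, and those of Saa4 nearly coincide for the control library, 24 h and 48 h.

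Shares of cells with a UMI depend on depth and on free RNA. Saa1 had a UMI in 100% of hepatocytes of the control library, but also in 85.0% of its 674 T or NK marker barcodes (median 6157 UMIs), so that share is not read as expression. Saa3 gave less background: a UMI was found in 10.3% of hepatocytes of the control library, 41.3% at 24 h, 81.4% at 48 h, 4.41% at 96 h and 3.47% at postnatal day 14, against 0.890%, 5.93%, 12.2%, 0% and 2.63% of T or NK marker barcodes in the same order of libraries. The 0% was 0 of 200 barcodes, with an exact upper limit of 1.83%. With every hepatocyte thinned to 5000 UMIs the Saa3 shares were 3.57%, 20.9%, 57.7%, 1.43% and 0.760%, in the same order. The share at 48 h stayed the highest by both measures. At 48 h, 262 hepatocytes with at least 10 Saa3 UMIs held 87.1% of the Saa3 UMIs, and the highest single cell held 237. This cut was made without thinning, and the 262 cells were deeper than the rest (median 44984 against 29604 UMIs). Of these 262 cells 46.2% held at least 3 neutrophil markers, against 42.7% of the other 457.

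Saa1 and Saa2 varied together from cell to cell. With cells thinned to 5000 UMIs, Spearman's rho between Saa1 and Saa2 over the cells of a library was 0.20 at postnatal day 14 (n = 2106 cells), 0.57 in the control library (n = 925), 0.79 at 24 h (n = 1170), 0.90 at 48 h (n = 719) and 0.64 at 96 h (n = 771). Cells of a library share one preparation, and rho rises with the mean count, which at 48 h was 90.9 Saa1 UMIs per thinned cell against 3.55 at 96 h. Saa3 followed them weakly, with rho of 0.22 with Saa1 at 48 h, where its mean was 1.62 UMIs per thinned cell. Saa4, at 1.65 UMIs per thinned cell, had a rho of 0.09 with Saa1 at 48 h and -0.01 at 24 h.

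**Figure D3:**
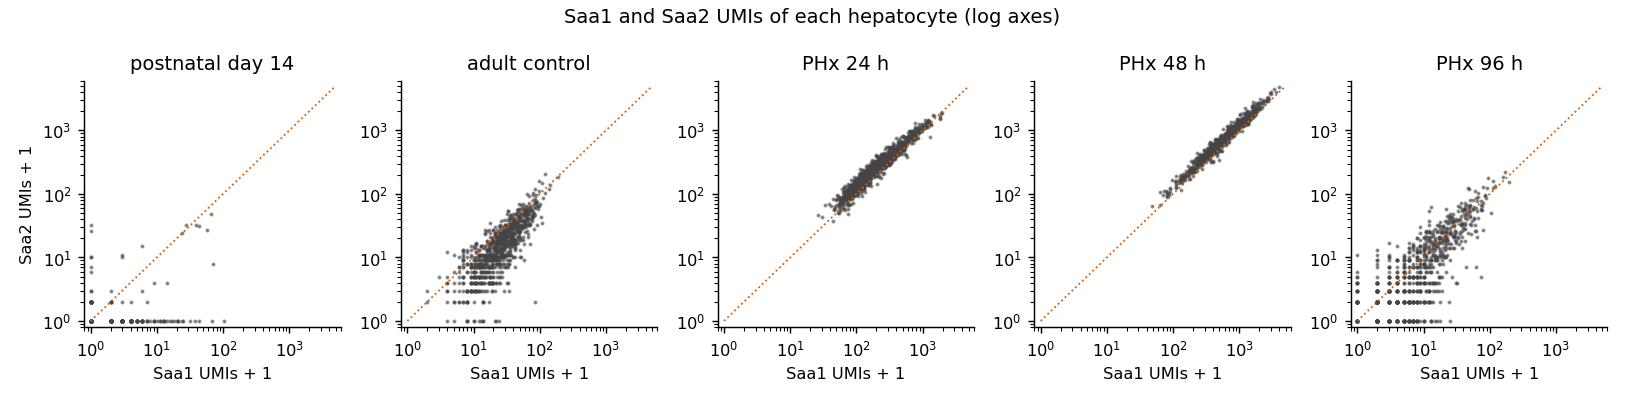
Saa1 UMIs plus 1 (horizontal) and Saa2 UMIs plus 1 (vertical) of each hepatocyte in each library, both on log axes, with a dotted line where they are equal. The cells at 24 h and 48 h lie in a narrow band above the line, those of the control library mostly below it, and those of postnatal day 14 mostly on one axis or at the origin.

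The balance between Saa1 and Saa2 differed between libraries. Saa1 made up 78.8% of the UMIs of both genes at postnatal day 14 (exact binomial 76.7% to 80.7%), 59.8% in the control library (59.3% to 60.2%), 45.0% at 24 h (44.9% to 45.1%), 44.2% at 48 h (44.1% to 44.3%) and 50.7% at 96 h (50.01% to 51.3%). Saa2 was thus the larger at 24 h and 48 h and Saa1 at postnatal day 14 and in the control library. The interval at postnatal day 14 takes UMIs as independent, but few cells held most of them there. In the 18 cells of that library with at least 20 UMIs of both genes together, the Saa1 share ran from 0% (5th percentile) to 100% (95th percentile). The balance did not follow the level of both genes across libraries, since the 96 h library had both a lower level and a lower Saa1 share than the control library. Within these 2 libraries the cells of higher level had the lower Saa1 share. When hepatocytes were ordered by Saa1 and Saa2 together and split into 3 equal sets, the Saa1 share went from 68.3% in the lowest set to 62.6% and 56.2% in the control library, and from 68.8% to 57.2% and 47.6% at 96 h. At 48 h it was 44.6%, 43.8% and 44.3%, and at 24 h 42.9%, 43.1% and 46.4%, so the sets differed by little there and the order at 24 h was the other way. The sets were cut by the same counts whose balance is given, so they are a description. The empty droplets had a lower Saa1 share than the hepatocytes in each library: 64.1% at postnatal day 14, 52.9% in the control library, 36.1% at 24 h, 38.5% at 48 h and 42.4% at 96 h. Subtracting free RNA left the shares at 79.0%, 60.3%, 45.3%, 44.3% and 51.25%.

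**Figure D4:**
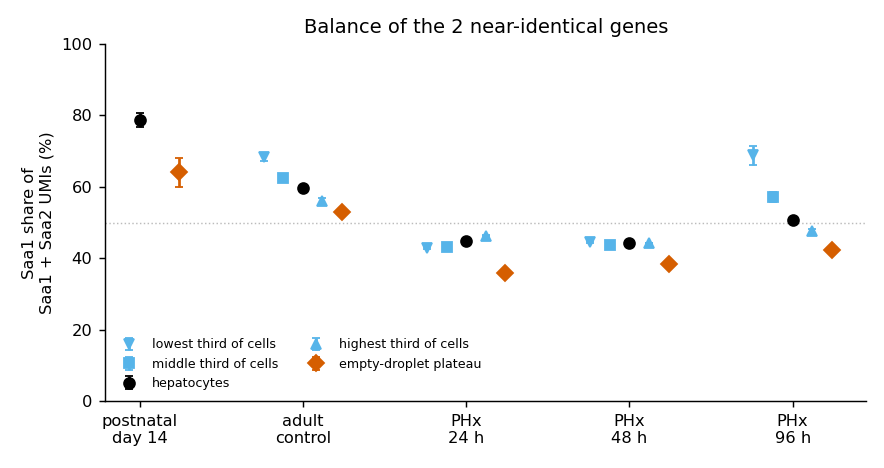
Saa1 as a percent of Saa1 and Saa2 UMIs in all hepatocytes (black), in the 3 sets of hepatocytes ordered by their summed CPM (blue) and in the empty-droplet plateau (orange), with exact 95% binomial intervals. The black points range from 78.8% at postnatal day 14 to 44.2% at 48 h, and the orange points lie below them in all 5 libraries.

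At postnatal day 14 most Saa1 UMIs lay in few cells. Of 2106 hepatocytes 1821 had no Saa1 UMI, 183 had 1, 74 had 2 to 9 and 28 had at least 10. The 28 cells (1.33%) held 65.1% of all Saa1 UMIs, and 15 cells were enough for 50% of them. Most of these cells did not hold the other inducible members: 20 of the 28 had no Saa2 UMI and 22 had no Saa3 UMI, and the highest had 103 Saa1 UMIs, 0 Saa2 UMIs and 17 Saa3 UMIs. Of the 10 cells with at least 10 Saa2 UMIs, 2 had no Saa1 UMI. The 28 cells were near the others in depth (median 42026 against 38886 UMIs), in Alb (102150 against 105020 CPM) and in Saa4 (229 against 196 CPM). Lcn2, which encodes the iron-siderophore binding acute phase protein lipocalin 2, was at 351 CPM in them against 46.7 CPM in the rest, and Hp, which encodes haptoglobin, at 6760 against 4592 CPM. None of the 28 held 3 markers of neutrophils, monocytes or dendritic cells, macrophages, endothelial cells, B cells or T or NK cells. Few of the other 2078 hepatocytes did either: 1.83% for neutrophils, 1.06% for endothelial cells and less for the rest. So 0 of 28 says little. The plateau of empty droplets carried 0.00888 Saa1 UMIs per droplet there, or 1.44% of the hepatocyte mean of 0.618. In CPM the plateau stood at 19.6 for Saa1, 10.98 for Saa2 and 5.41 for Saa3, against 20.2, 5.44 and 2.57 in the hepatocytes.

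Hepatocytes were then ordered by a zonation score, the log2 ratio of summed pericentral to summed periportal gene CPM, and split into 3 equal ranges per library (portal, middle and central). These are ranges of a score and not cell types. They were set within each library and so cover different scores: the median of the portal range was -3.81 in the control library, -2.81 at 24 h, -1.70 at 48 h and -4.03 at 96 h, and that of the central range 0.69, 1.07, 1.78 and 0.80. The order of the ranges in the summed Saa genes was not the same in each library. In the control library the level was 4425 CPM in the portal range (4363 to 4487), 4269 CPM in the middle and 3029 CPM in the central range (2979 to 3080). This order turned (log2 ratio of portal to central -0.32 against 0.55) in the 47 hepatocytes of that library with Alb, Apoa1 and Ttr at 5% or more. At 24 h the 3 ranges lay at 38354, 39302 and 38592 CPM, close to level. At 48 h the order was the other way, with 44405 CPM in the portal range (44248 to 44563), 55834 CPM in the middle and 72278 CPM in the central range (72075 to 72482). At 96 h the portal range was again the highest, with 2844, 2353 and 1189 CPM.

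The members shared this order unequally. At 48 h the central range held 1.55 times the Saa1 level, 1.69 times the Saa2 level, 1.66 times the Saa3 level and 1.42 times the Saa4 level of the portal range. At 96 h the portal range held 2.94 times the Saa1 level and 2.71 times the Saa2 level of the central range, but 1.12 times the Saa4 level. Over the cells of each library, thinned to 5000 UMIs, Spearman's rho of Saa1 plus Saa2 with the pericentral score was -0.29 in the control library, -0.0032 at 24 h, 0.50 at 48 h, -0.33 at 96 h and -0.056 at postnatal day 14. With the Saa genes left out of the total, the log2 ratio of the portal to the central range at 48 h was -0.75 against -0.70 with them. Median depth was 36529 UMIs in the portal and 33758 in the central range at 48 h, and 19073 and 26118 at 96 h. At postnatal day 14 the sum, mostly Saa4, was 221, 226 and 227 CPM, while Saa1 alone was 29.7 CPM in the portal and 13.0 CPM in the central range. In that library 28 of 2106 hepatocytes held 65.1% of the Saa1 UMIs, so few cells can carry this difference.

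**Figure D5:**
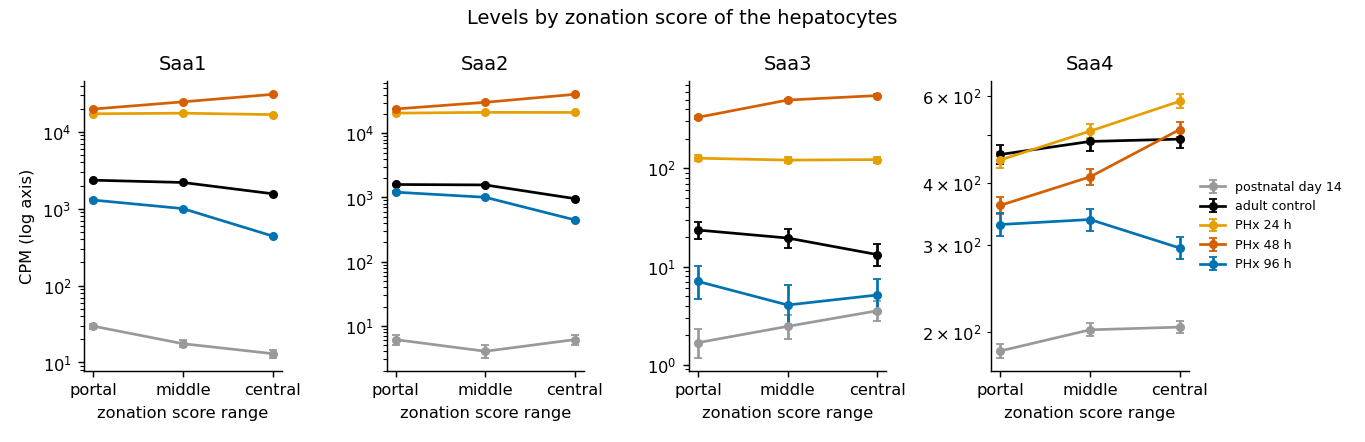
CPM (log axis, own scale per gene) in the portal, middle and central ranges of the zonation score for each gene and library, with exact 95% Poisson intervals. Saa1 and Saa2 are lower centrally in the control library and at 96 h, level at 24 h, and higher centrally at 48 h.

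Hepatocytes with at least 3 mitosis genes detected (mitosis-positive) were set against non-cycling ones. Non-cycling means no mitosis gene and at most 1 replication gene detected. Hepatocytes that met neither rule were left out of this comparison. At 24 h the summed Saa level was 38555 CPM in 153 hepatocytes with at least 3 mitosis genes and 40420 CPM in 353 non-cycling ones, and at 48 h it was 56571 CPM in 271 mitosis-positive and 61808 CPM in 210 non-cycling hepatocytes. The mitosis-positive cells thus stood at 0.95 and 0.92 times the non-cycling level. The call of at least 3 detected genes was made after all cells were thinned to the same number of UMIs. Before thinning the mitosis-positive cells were deeper, with medians of 27323 against 20302 UMIs at 24 h and 41895 against 32826 UMIs at 48 h. The part of this depth difference in the levels was not tested, and the call is not read as a cell in mitosis. Saa4 differed more, with 369 against 542 CPM at 24 h and 327 against 541 CPM at 48 h. At 96 h the 52 mitosis-positive hepatocytes held 1352 CPM of the summed genes against 2271 CPM in 539 non-cycling ones. There the median zonation score was 0.36 in mitosis-positive and -2.45 in non-cycling hepatocytes, and the part of zonation in that difference was not tested. The control library had 4 mitosis-positive hepatocytes, too few to compare.

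The genes for inducing cytokines were low in hepatocytes. Of 11 cytokine genes on the list, Ctf1, which encodes cardiotrophin 1, was the only one of at least 5 CPM in any library. It stood at 11.6 CPM at postnatal day 14 and 4.43 CPM in the control library. After PHx it stood at 5.84 CPM at 24 h, 5.47 CPM at 48 h and 7.96 CPM at 96 h. Ctf1 was thus highest in the 2 libraries where Saa1 and Saa2 were lowest, but lowest in the control library. The adult values rest on 59 to 114 UMIs, and a relation to the Saa levels was not tested. Il6 had 0 UMIs in hepatocytes at 24 h and 3 at 48 h. In barcodes with neutrophil markers, Il1b, which encodes interleukin 1 beta, stood at 304 CPM at postnatal day 14 (55 barcodes), 2011 CPM in the control library (49 barcodes), 956 CPM at 24 h (162 barcodes), 619 CPM at 48 h (163 barcodes) and 2872 CPM at 96 h (79 barcodes). Osm, which encodes oncostatin M, stood at 23.8, 56, 102, 82.5 and 80.9 CPM in the same order. These classes were gated by markers and are few barcodes.

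Among 12 receptor genes, 2 of the 9 of at least 5 CPM were 4-fold higher at 24 h, Il1r1 and Osmr, and 1 at 48 h, Osmr. Of all genes tested 2.77% and 2.96% were 4-fold higher at these times. Osmr reached 5 CPM only at 24 h and 48 h. Il1r1, the signalling receptor of interleukin 1, was at 35.7 CPM in the control library, 157 CPM at 24 h, 70.4 CPM at 48 h and 28.9 CPM at 96 h. Osmr, the oncostatin M receptor, was at 0.451, 17.5, 12 and 1.41 CPM. Il6ra and Il6st, the 2 chains of the interleukin 6 receptor, stayed between 47.8 and 79.8 CPM in these 4 libraries. Il1rap was at 206, 77.5, 76.8 and 174 CPM and Lifr at 323, 86.2, 97.6 and 197 CPM in the same order. No receptor gene of at least 5 CPM was 4-fold lower.

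Of 18 signalling and transcription factor genes, 15 had at least 5 CPM, and none was 4-fold higher at 24 h, 48 h or 96 h. At each of these times 1 was 4-fold lower, against 1.05%, 1.25% and 0.427% of all genes tested. That gene was Cebpa at 24 h and 48 h, which encodes C/EBP alpha, a factor of resting hepatocytes, at 352 CPM in the control library, 72.5 CPM at 24 h, 81.2 CPM at 48 h and 263 CPM at 96 h. Cebpb, which encodes the acute phase factor C/EBP beta, was at 298, 628, 487 and 250 CPM and Cebpd, which encodes C/EBP delta, at 7.88, 27.6, 22.6 and 3.20 CPM. Socs3, which encodes a feedback inhibitor of interleukin 6 signalling and is itself a STAT3 target, went in another direction: 69.7 CPM in the control library, 40.4 CPM at 24 h, 22.5 CPM at 48 h, 12.9 CPM at 96 h and 1.90 CPM at postnatal day 14. It was the gene more than 4-fold lower at 96 h. At postnatal day 14 Socs3 and Bcl3 (7.19 against 61.7 CPM), which encodes an NF-kB cofactor, were 4-fold lower.

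Of 25 other acute phase genes, 8 of the 24 of at least 5 CPM were 4-fold higher at 24 h. At 48 h 6 of 22 were, and at 96 h 0 of 22. The shares over all genes tested were 2.77%, 2.96% and 0.945%. Among the adult libraries, Orm3 and Il1rn reached 5 CPM at 24 h alone, so the counts do not cover the same genes. Orm3 was among the 8, at 3.30 CPM in the control library, 20.6 CPM at 24 h and 4.66 CPM at 48 h. Median log2 ratios of the list were 1.28, 1.43 and 0.01 against -0.0009, -0.08 and 0.04 over all genes tested. Orm1, which encodes orosomucoid, was at 2.49 CPM at postnatal day 14, 1520 CPM in the control library, 10889 CPM at 24 h, 14114 CPM at 48 h and 2205 CPM at 96 h. Lcn2 was at 72.3, 4874, 3307 and 229 CPM in the adult libraries, and Apcs, which encodes serum amyloid P, a pentraxin unrelated in sequence to the Saa genes, at 119, 1975, 2006 and 355 CPM. Unlike Saa1 and Saa2, these 3 were higher at 96 h than in the control library. The list as a whole went both ways at 96 h, and Hp (2440 against 3126 CPM) and Lrg1 (520 against 839 CPM) were among the genes that were lower. The metallothionein genes had the largest ratios of the list at 24 h, with Mt1 at 119, 8399, 6980 and 251 CPM and Mt2 at 39.9, 3759, 2576 and 53.7 CPM. Orm2, a second orosomucoid gene, was at 71.2, 1640.0, 2297 and 74.5 CPM. Hamp, which encodes the iron hormone hepcidin, was at 429, 2188, 1114 and 1371 CPM, and so was 4-fold higher at 24 h alone. At postnatal day 14 the 4 genes that were 4-fold lower were Orm1, Orm2 (0.976 CPM), Hamp (0.248 CPM) and Lrg1 (185 against 839 CPM), whereas Hp (4624 against 3126 CPM) and C3 (5962 against 2283 CPM) were higher. None of the 10 HDL genes of at least 5 CPM passed 4-fold in any comparison with the control library. At postnatal day 14 their median log2 ratio was 1.26, against -0.26 over all genes tested. Apoa1, the main HDL protein gene, was at 4999 CPM in the control library and 17580 CPM at postnatal day 14. After PHx it was at 5494 CPM at 24 h, 6140 CPM at 48 h and 8583 CPM at 96 h. Among 12 genes that respond to tissue handling, 9 or 10 had at least 5 CPM in each comparison with the control library. Their median log2 ratio was -0.08 at 24 h, 0.31 at 48 h, 0.79 at 96 h and -0.70 at postnatal day 14. Over all genes tested it was -0.0009, -0.08, 0.04 and -0.26 in the same order. None of the 9 or 10 was 4-fold higher. The heat shock gene Hspa1b was 4-fold lower at 24 h, at 48 h and at postnatal day 14. It stood at 52.3 CPM in the control library. The lower values were 10.45 CPM at 24 h, 5.28 CPM at 48 h and 1.72 CPM at postnatal day 14. Of the 6 genes that flank the cluster, 4 had at least 5 CPM, and none of them passed 4-fold in these comparisons. Of all genes tested 0.427% to 3.72% passed 4-fold in a given direction there, so a count of 0 in so short a list says little.

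The genes whose 5-library profiles were most like each member were looked for among 3375 genes of at least 50 CPM in some library, by the root mean square (RMS) difference of log2(CPM + 1) relative to the control library. Saa2 and Saa1 differed by 0.89. For Saa1 the nearest other genes were Orm2 (1.37), Orm1 (1.42), Wfdc21 (1.76), Nnmt (1.77), Slc10a2 (1.85), Hamp (2.08), Tifa (2.13) and Tsku (2.19). For Saa2 they were Orm1 (1.17), Orm2 (1.37), Hamp (2.15), Wfdc21 (2.23), Nnmt (2.48), Slc10a2 (2.51), Cxcl14 (2.90) and Sqle (2.93). Saa3 was nearest to Cxcl14 (1.76), Lrg1 (1.76), Fam25c (1.79), Dnajc12 (1.83) and Orm2 (1.87). Saa4 had far closer neighbours, Aars (0.10), Fndc4 (0.11), Tspan31 (0.12), Tmem120a (0.14) and Sdccag3 (0.14). So no gene outside the family came as near to Saa1 or Saa2 as they came to each other, in these 5 libraries.

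Across single cells the partners were partly others. At 24 h the genes with the highest Spearman's rho with Saa1 plus Saa2 over 1170 thinned cells, among 2719 genes of at least 50 CPM, were Orm1 (0.66), Apoa2 (0.65), Ttr (0.64), Apoc4 (0.56), Apoc3 (0.55), Apoc1 (0.53), Apoa1 (0.53) and Gstp1 (0.53). At 48 h over 719 cells and 2557 genes they were Apoa2 (0.60), Fabp1 (0.59), Orm1 (0.57), Ttr (0.55), Apoc1 (0.53), Orm2 (0.47), Fabp5 (0.43) and Cyp2e1 (0.42). Several of these encode small secreted or lipid-binding proteins, and the cells compared share one preparation and a fixed total of 5000 UMIs. These partners were not the same in every library: Cyp2e1 had a rho of -0.33 in the control library and -0.32 at 96 h. Cyp2e1 is one of the pericentral genes of the zonation score, so its values are not independent of the order by that score. Alb, which also enters the hepatocyte thresholds, had a rho of 0.27 in the control library, -0.29 at 24 h and -0.52 at 48 h with the Saa genes, against a median of -0.01, -0.04 and -0.02 over all genes compared.

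Outside hepatocytes, Saa1 was set against the hepatocyte RNA found in the same barcodes. These barcodes were gated to a share of Alb, Apoa1 and Ttr below that of the plateau, which limits the denominator of the ratios that follow, so a value above the plateau is not read as expression. In T or NK marker barcodes of the control library there were 53.1 Saa1 UMIs per 1000 UMIs of Alb, Apoa1 and Ttr (50.3 to 56.1), against 52.5 in the empty-droplet plateau and 51.3 in hepatocytes. At 24 h the T or NK value was 1022 (985 to 1061), above the 795 of the plateau, and at 48 h it was 1062 (1025 to 1099) against 1098.5. At 96 h it was 29.0 (25.7 to 32.7) against 26.7 in the plateau. Other classes lay on both sides of the plateau. At 24 h the value was 744 (702 to 788) in barcodes with endothelial markers, 881 with B cell markers, 1279 with neutrophil markers and 1342 with erythroid markers. At 48 h it was 850 (761 to 946) with endothelial, 1321 with monocyte or dendritic and 2274 with neutrophil markers. At 48 h 1 barcode held 2564 of the 3654 Saa1 UMIs of the neutrophil class and 1 held 683 of the 1486 of the monocyte or dendritic class, whereas at 24 h the highest held 895 of 2947 in the neutrophil and 691 of 5521 in the erythroid class. Saa3 stood out in a few barcodes. At 24 h, 74 barcodes with monocyte or dendritic markers held 55 Saa3 UMIs, or 55.7 per 1000 (42.0 to 72.5) against 5.49 in the plateau, but 11 barcodes held them all and 1 held 23. At 96 h, 1 of 10 barcodes with macrophage markers held 30 Saa3 UMIs and the other 9 held none, while all 771 hepatocytes together held 72.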

How the data were processed

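Single-cell libraries of liver cells were analysed from the authors' deposited matrices of UMI counts per gene and barcode, whole numbers without normalization, which list empty droplets as well as cells. Software version 3.0.2 wrote them, per the file headers. The submitters' processing notes name bcl2fastq 2.17.1.14, Cell Ranger, Seurat 3.1 and build mm10, and the annotation behind the counts is not given in the sources used here.

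Hepatocytes were taken by the thresholds in the report, counts were summed per library, and CPM were computed over all genes but 13 mitochondrial ones. Folds are ratios of CPM with no pseudocount. Log2 ratios add 1 CPM to both sides and so are smaller for genes of few CPM, such as Saa3 and, at postnatal day 14, Saa2, and a gene was called past 4-fold if it reached 5 CPM in one of the libraries compared. With 1 library per group no test was made and whether a library pools animals is unknown. The members, gene lists and markers were chosen with earlier results of these data known. Named genes were the members, the 8 genes (5 for Saa3 and Saa4) nearest in profile, the 8 highest by Spearman's rho across cells at 24 h and at 48 h, list genes of at least 50 CPM that passed 4-fold, and inducers and receptors; other genes named were chosen after their values were seen.

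Other cell classes were barcodes of at least 1000 UMIs with at least 3 markers of the class, 2 more than of any other, a marker share at least 10 times that of the plateau, under 30% mitochondrial UMIs and a share of Alb, Apoa1 and Ttr below that of the plateau. They were gated, not clustered. Cells were thinned without replacement to 5000 UMIs (no hepatocyte was shallower). Doublets were kept in the values reported; as an alternative, the highest Scrublet scores (scanpy 1.11.5) were removed at 0.8% per 1000 barcodes. Other alternatives used edgeR 4.0.16 (TMM) and DESeq2 1.42.0 (size factors) for scaling only. Scripts ran in Python 3.11.15 and were tested on simulated data.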

Additional observations from a re-analysis of the deposited data

Results flagged for a closer look

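Saa1, Saa2 and Saa3 stood on opposite sides of the control library at different times after PHx, each beyond its counting interval, and the difference between times was not tested because each time is 1 library. The log2 ratios at 24 h, 48 h and 96 h were 3.08, 3.62 and -1.21 for Saa1, 3.94, 4.53 and -0.67 for Saa2, and 2.66, 4.54 and -1.63 for Saa3. The Saa3 value at 96 h rests on 72 UMIs and was 0.41 with a mitochondrial share of 10% to 20%, on the other side of the control library. Saa4 had ratios of 0.10, -0.16 and -0.58.

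The gradient of the summed Saa genes over the zonation score also changed sides, again not tested. The log2 ratio of the portal to the central range was 0.55 in the control library, -0.70 at 48 h and 1.26 at 96 h. The control value was -0.32 in the 47 hepatocytes with Alb, Apoa1 and Ttr at 5% or more.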

How the results depend on the processing

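No paired analysis was possible because each group has 1 library. The log2 ratios of the summed Saa genes to the control library (3.32 at 24 h, 3.88 at 48 h, -0.92 at 96 h, -4.11 at postnatal day 14) kept their sign and their side of 4-fold under all 13 alternatives, but 34 of 52 values left the narrow counting intervals; the cause was not tested. In the order of those groups they were 3.80, 4.34, -0.44 and -3.96 with a mitochondrial share of 10% to 20%; 3.56, 3.71, -0.97 and -4.30 with Alb, Apoa1 and Ttr at 5% or more, which left 6 hepatocytes at 24 h and 2 at 48 h; 3.19, 3.82, -0.82 and -4.07 as means of per-cell CPM; 3.30, 3.86, -0.98 and -4.14 with free RNA subtracted; and 3.34, 3.94, -0.96 and -3.85 with DESeq2 size factors. With a mitochondrial share of 0% to 30% the ratios of the operated groups were 3.46, 3.96 and -0.84. With all UMIs as denominator 3.36, 3.92 and, at postnatal day 14, -4.02 were found, and with TMM 3.37, 3.97 and -3.77. TMM shifted all genes at postnatal day 14 by 0.34. The others were -4.06 at postnatal day 14 with a pseudocount of 10 CPM, 3.33 at 24 h with at least 10000 UMIs, 3.33 and 3.90 at 24 h and 48 h without the highest Scrublet scores, and, chosen after seeing the data, 3.30 at 24 h without hepatocytes holding 3 markers of another class. Counts of genes past 4-fold stayed within 1.5 times without the filter on low values.

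Of 208 ratios of single genes 2 changed sign: Saa3 at 96 h was 0.41 with a mitochondrial share of 10% to 20% (53 hepatocytes), and Saa4 at 48 h was 1.03 in the 2 hepatocytes above. Saa3 at postnatal day 14 ranged from -2.58 to -1.19, short of 4-fold under 3 of 13 alternatives, and at 24 h from 1.04 (the 6 hepatocytes above) to 4.32 (mitochondrial share of 10% to 20%). At 48 h Saa3 ranged from 4.03 (pseudocount of 10 CPM) to 6.68 (the 2 hepatocytes above). The portal to central ratio in the control library was -0.32 in the 47 hepatocytes with Alb, Apoa1 and Ttr at 5% or more, an alternative chosen after seeing the data, and at 24 h, near 0 throughout, it was 0.14 with a mitochondrial share of 0% to 30%.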

Other observations

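The genes for 3 reported serum amyloid A receptors were compared between cell classes. Fpr2, which encodes a formyl peptide receptor, stood at 191 CPM at 24 h and 222 CPM at 48 h in barcodes with neutrophil markers (107 CPM in the control library), against 0.154 and 0.192 CPM in hepatocytes. Cd36, which encodes a scavenger receptor, was at 496 CPM at 24 h and 492 CPM at 48 h in barcodes with endothelial markers (582 CPM in the control library), against 4.20 and 3.65 CPM in hepatocytes. Scarb1, the HDL receptor SR-BI, was found in hepatocytes at 65.2 CPM in the control library, 39.9 CPM at 24 h, 43.6 CPM at 48 h, 62.4 CPM at 96 h and 128 CPM at postnatal day 14. In barcodes with endothelial markers it was higher than that at 24 h, at 100.1 CPM (73.5 to 133), and at 48 h, at 132 CPM (93.1 to 181). In the other 3 libraries its counting interval held the hepatocyte value: 52.2 to 148 CPM in the control library, 45.7 to 116 CPM at 96 h and 58.6 to 139 CPM at postnatal day 14. Barcodes with monocyte or dendritic markers held 70.7, 63.6, 56.5 and 58.2 CPM in the control library and at 24 h, 48 h and 96 h.

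Barcodes with hepatocyte transcripts but under 10% mitochondrial UMIs, which the hepatocyte thresholds leave out, held Saa1 at 24366 CPM at 24 h (328 barcodes) and 32028 CPM at 48 h (176 barcodes), above the 17157 and 24977 CPM of the hepatocytes. At 96 h they numbered 684 and held 940 CPM against 879 CPM, and in the control library they numbered 150 and held 1472 CPM against 2029 CPM.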
